A study of Mus musculus with 4 samples.

Results

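The opioid system of the mouse posterior hindbrain was described here by 7 genes out of 32285 counted: the precursors Penk, Pdyn and Pnoc and the receptors Oprm1, Oprd1, Oprk1 and Oprl1. The genes were chosen by name as the classical opioid peptides and receptors, and the rule uses no measured value, although earlier results of these data were known when it was made. All 7 were present in the count tables, and each was followed over the 14 cell types and the 134 neuronal clusters of the deposited annotation, in nuclei marked as passing the quality filter of the study. The study asked which hindbrain neurons respond when hunger neurons are activated and satiety neurons are silenced together. Single-nucleus RNA sequencing was done on a piece of hindbrain that held the area postrema and the nucleus tractus solitarii, with 2 libraries per group: control and AgRP-Gq;POMC-Gi.

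AgRP-Gq;POMC-Gi mice carried 2 pairs of alleles. Cre under the Agrp gene (AgRP-IRES-Cre+/-) switches on the activating designer receptor hM3DGq (allele hM3DGqfl/-), and Dre under the Pomc gene (POMC-Dre+/-) switches on the inhibitory designer receptor hM4DGi (allele hM4DGifl/-). Control mice are labelled wildtype. The methods of the study instead describe controls as lacking both recombinases (AgRP-IRES-Cre-/-, POMC-Dre-/-) while carrying the same receptor alleles, hM3DGqfl/- and hM4DGifl/-. Mice of both groups were 12 to 20 weeks old and of both sexes, received clozapine N-oxide (CNO), the ligand of the designer receptors, at 3 mg/kg into the peritoneum, and were killed after 1 h without food. Mice of a condition were pooled, with 2 mice per group, and the sources used here do not say which mice gave which library. P-values therefore measure the spread between these libraries, which holds technical variation and, in the AgRP-Gq;POMC-Gi group, a difference in Xist. No group without CNO was analysed here.

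Opioid peptides are cut from large precursor proteins. Proenkephalin (Penk) yields Met- and Leu-enkephalin, prodynorphin (Pdyn) yields dynorphins and neoendorphins, and prepronociceptin (Pnoc) yields nociceptin. They act on receptors coupled to inhibitory G proteins: the mu receptor (Oprm1), the delta receptor (Oprd1), the kappa receptor (Oprk1) and the nociceptin receptor (Oprl1), which open potassium channels, close calcium channels and lower cyclic AMP. In the dorsal vagal complex, opioid signalling is known for its part in feeding, nausea, gut motility, breathing and blood pressure.

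The precursors differ in how many copies of the opioid core, the 5 residues that begin the active peptides, they encode. The reading frame of Penk held 7 copies (6 ending in Met, 1 ending in Leu), that of Pdyn held 3 (each ending in Leu), and that of Pnoc held 1, which begins with Phe and has Thr as the fifth residue. The stretches of 27 bases shown here, from GRCm38 coding sequence and 5′ to 3′ on the minus strand on which all 3 genes lie, let the shared and differing bases be compared. Capitals mark the 15 bases of the core, and lower case marks the bases on either side, which mostly encode the Lys and Arg residues at which precursors are cut.
Penk copy 1, Met-enkephalin, codon 100 of 268, exon 2 of 2, chr4:4134328-4134354: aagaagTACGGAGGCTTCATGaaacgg
Penk copy 6, Leu-enkephalin, codon 231 of 268, exon 2 of 2, chr4:4133935-4133961: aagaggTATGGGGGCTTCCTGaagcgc
Pdyn copy 1, codon 166 of 248, exon 4 of 4, chr2:129688232-129688258: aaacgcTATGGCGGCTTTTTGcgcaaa
Pdyn copy 2, codon 202 of 248, exon 4 of 4, chr2:129688124-129688150: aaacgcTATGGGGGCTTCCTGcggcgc
Pnoc copy 1, codon 141 of 187, exon 3 of 4, chr14:65404872-65404898: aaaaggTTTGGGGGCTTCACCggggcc
Against the Leu-enkephalin core of Penk, Pdyn copy 2 differed at 0 of 15 bases, Pdyn copy 1 at 3 and Pnoc at 4. These are reference sequences that identify the genes, since the deposited tables hold counts per gene and do not resolve copies.

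In GRCm38 the members lie at chr4:4133531-4138819 (Penk, ENSMUSG00000045573), chr2:129686565-129699844 (Pdyn, ENSMUSG00000027400), chr14:65400673-65425472 (Pnoc, ENSMUSG00000045731), chr10:6758506-7038198 (Oprm1, ENSMUSG00000000766), chr4:132110726-132144486 (Oprd1, ENSMUSG00000050511), chr1:5588466-5606131 (Oprk1, ENSMUSG00000025905) and chr2:181715016-181720985 (Oprl1, ENSMUSG00000027584). Antisense genes overlap 2 of them. Ipcef1 covers 54.5% of Oprm1, including its 3′ end, and A830012C17Rik covers 9.43% of Penk at the end away from the 3′ end. Gm10945 covers a further 1.16% of Oprm1. The sources used here do not state how strand was treated in counting, so reads of Oprm1 and Ipcef1 in particular cannot be told apart with certainty.

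The 4 libraries held 9723 to 10051 nuclei that passed the filter (39461 in all) and 48904976 to 53089402 unique molecular identifiers (UMIs, each 1 captured transcript). Neurons made up 12539 of these nuclei, 2470 and 2736 for control and 3696 and 3637 for AgRP-Gq;POMC-Gi, with a median of 8704 UMIs. Rbfox3, Snap25 and Syt1, markers of neurons, were at 256, 715 and 1348 CPM (UMIs of a gene scaled to a fixed total per group of nuclei) in nuclei annotated as neurons, and at 8.40, 93.1 and 26.5 CPM in oligodendrocytes. Of the distinct barcodes, 168 of 39293 (0.428%) occurred in more than 1 library. Xist, the transcript of the inactive X chromosome, which female cells express, was at 507, 319 and 541 CPM in neurons of both control libraries and AgRP-Gq;POMC-Gi replicate 1, but at 16.2 CPM in AgRP-Gq;POMC-Gi replicate 2, so this library stood apart. Its nuclei thus came mostly from males, those of the other libraries at least in part from females, and the AgRP-Gq;POMC-Gi libraries were not drawn from 1 mixed pool. Sex was not balanced between the groups, and its part in the group differences was not tested. Libraries also split by replicate number in both groups. In neurons, Ttr, a marker of choroid plexus, was at 1.49 and 7.53 CPM in the replicates 1 of control and AgRP-Gq;POMC-Gi and at 1003 and 580 CPM in the replicates 2, and Tph2, which makes serotonin, at 12.9 and 4.97 against 1.79 and 1.53 CPM.

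Scaled to the span of each gene with its introns, Penk ranked highest in neurons (8.10 ± 1.47 CPM per kb, mean ± SD, n = 4 libraries). Values that follow are given in the same way, except log2 fold changes, which are given ± SE. Oprl1 (1.86 ± 0.08), Oprk1 (0.698 ± 0.121), Oprd1 (0.389 ± 0.048), Oprm1 (0.379 ± 0.014), Pnoc (0.221 ± 0.023) and Pdyn (0.156 ± 0.045) followed. The order depends on the length used, since exons cover 1634 bases of Penk and 8037 bases of Oprm1. Whether introns were counted is not known, so it is not an order of transcript abundance. Oprd1 and Oprm1 did not differ beyond their spread in this order. Without scaling to length, Oprm1, which spans 279.693 kb, gave the most UMIs of the 7. At least 1 UMI was found in 42.3% of neurons for Oprm1, 21.0% for Penk, 10.2% for each of Oprl1 and Oprd1, 9.30% for Oprk1, 4.21% for Pnoc and 1.38% for Pdyn. No member was detected in 34.5% of neurons, 1 member in 39.4%, 2 members in 20.1% and 3 members in 5.24%.

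Nuclei also pick up free RNA, so oligodendrocytes, the most numerous cell type, served as a background. With every nucleus brought to 2000 UMIs, Oprm1 was detected in 17.3% of neurons and 0.63% of oligodendrocytes, Oprd1 in 2.34% and 0.04%, Oprk1 in 2.34% and 0.10%, and Oprl1 in 2.27% and 0.33%. The precursors stood out less, with Penk in 7.90% of neurons and 3.5% of oligodendrocytes, Pnoc in 1.22% and 0.34%, and Pdyn in 0.43% and 0.15%. These shares rest on the 12373 of 12539 neurons and 11400 of 16816 oligodendrocytes that were deep enough. In CPM each of the 7 members was higher in neurons than in oligodendrocytes in 4 of 4 libraries (exact paired permutation test, two-sided, p = 0.125, the smallest that 4 libraries allow).

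Penk, the enkephalin precursor, was at 36.1, 44.6, 37.6 and 53.2 CPM in neurons of control replicates 1 and 2 and AgRP-Gq;POMC-Gi replicates 1 and 2. The same libraries gave 13.7, 21.3, 17.1 and 28.0 CPM in oligodendrocytes, in the same order, and the neuronal excess was 22.8 ± 1.91 CPM. Library levels of Penk thus moved together in both cell types, and in both groups they were higher in replicate 2, as Ttr was. The part of free RNA or of tissue taken with the piece in the neuronal values was not tested. Clusters were ranked where each library gave 5 nuclei or more, which left 120, and Penk was above the highest oligodendrocyte library in every library in 29 clusters. The median over the 120 clusters was 25.6 CPM, and no cluster was without a Penk UMI.

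Clusters rich in Penk belonged to different transmitter classes. Among the 5 highest, the glutamatergic Cartpt/Postn (clusters carry the names of their marker genes as deposited) had 479, 303, 249 and 322 CPM, in the order of libraries given above, and the GABAergic Kcnmb2/Ebf3 had 341, 362, 275 and 286 CPM with a Penk UMI in 86.3% of its 95 nuclei. The libraries of these clusters overlapped. Ebf3/Pax2 (237 ± 54.5 CPM, GABAergic) and Ebf2/Calb1 (177 ± 56.0 CPM, glutamatergic) followed. Among neurons with Penk, 58.0% had a single UMI and the richest nucleus had 27.

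Pdyn, the dynorphin precursor, was found in few neurons. It had 0 UMIs in 73 of the 120 clusters and was above the oligodendrocyte level in 5, of which 4 were glutamatergic and 1 GABAergic. The glutamatergic cluster Pdyn/Cpa6, which the annotation named for this gene, had 108, 63.6, 62.2 and 125 CPM (mean 89.6 ± 31.6) with a Pdyn UMI in 41.7% of 115 nuclei. That cluster made up 0.917% of neurons and held 34.0% of their Pdyn UMIs, and its 4 libraries lay above those of the next cluster. The next were Tafa2/Pde1a (23.9 ± 17.7 CPM), Ankfn1/Pou4f1 (23.3 ± 10.3 CPM), Col5a2/Col6a1 (14.8 ± 10.7 CPM) and Cartpt/Postn (14.0 ± 20.5 CPM), which overlapped, and all 10 of the highest clusters were glutamatergic.

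Pnoc, the nociceptin precursor, had the opposite class preference. The highest clusters were Necab1/Arhgap15 (48.2, 47.6, 46.2 and 8.68 CPM), Qrfprl/Baiap3 (32.3, 40.5, 28.6 and 30.8 CPM), Ryr1/Tfap2b (32.6 ± 22.5 CPM), Ebf3/Pax2 (31.1 ± 15.4 CPM) and Col12a1/Tnc (22.9 ± 28.2 CPM), all GABAergic and all overlapping their neighbours. In Necab1/Arhgap15 the last library, AgRP-Gq;POMC-Gi replicate 2, was low, with 1 of its 18 nuclei positive. Pnoc was above the oligodendrocyte level in 18 of 45 GABAergic clusters and in 1 of 61 glutamatergic clusters.

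Summed over each class, Pnoc was at 10.2 ± 1.55 CPM in GABAergic and 1.80 ± 0.57 CPM in glutamatergic neurons, a ratio of 5.66, and the libraries of the classes did not overlap. Pdyn was at 0.65 ± 0.21 CPM in GABAergic and 3.51 ± 1.00 CPM in glutamatergic neurons, a ratio of 5.38 in the other direction, again without overlap. The lower class was in each case near the level of oligodendrocytes, 1.91 CPM for Pnoc and 0.77 CPM for Pdyn, so both ratios are against background. Penk was at 40.9 ± 5.42 and 42.4 ± 9.64 CPM. A cluster was called glutamatergic or GABAergic where Slc17a6, the vesicular glutamate transporter, and Slc32a1, the vesicular GABA and glycine transporter, differed at least 4-fold. The class called GABAergic thus does not separate GABA from glycine neurons. Slc6a5, a glycine transporter, was at 167 ± 7.49 CPM in it, with a UMI in 64.4% of nuclei, and Slc32a1 at 53.3 ± 4.08 CPM, with a UMI in 38.0%. For Pnoc and Pdyn the direction held in 4 of 4 libraries (exact paired permutation test, two-sided, p = 0.125 each, the smallest possible).

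**Figure D1:**
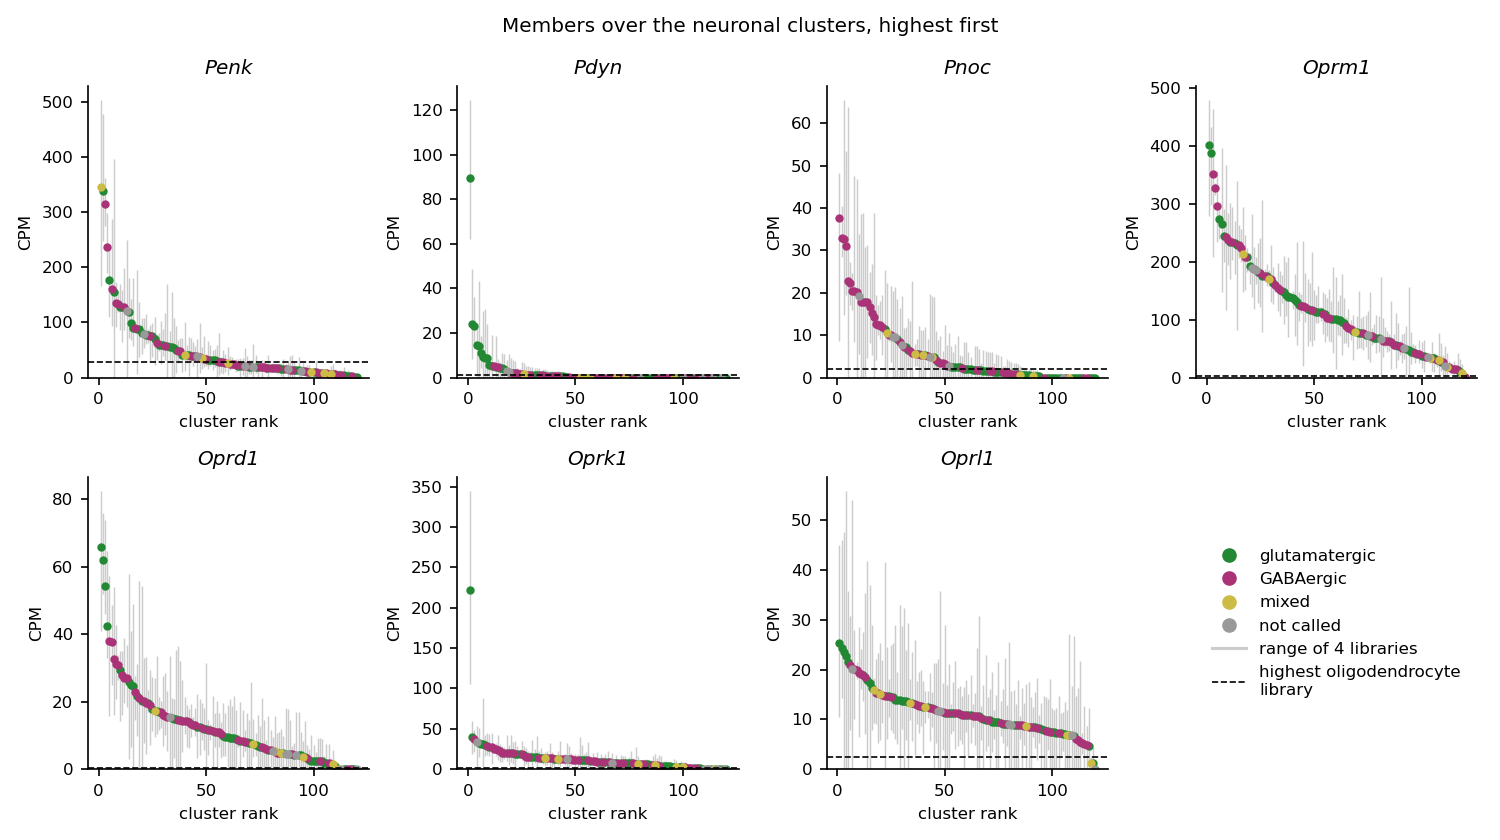
Mean CPM (vertical axis) of each member in the 120 ranked neuronal clusters, ordered from highest to lowest (horizontal axis, rank); colours give the transmitter class, grey lines the range of 4 libraries and the dashed line the highest oligodendrocyte library. Pdyn and Oprk1 fall steeply after 1 cluster (89.6 and 222 CPM), Pnoc is led by GABAergic clusters, and Oprm1 is above the dashed line in 110 clusters.

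Oprm1, the mu receptor, was the most widespread member. Neurons had 104, 101.2, 110 and 108 CPM (mean 106 ± 3.95), 110 of 120 clusters were above the oligodendrocyte level in every library, and none was without a UMI. The highest clusters were the glutamatergic Cartpt/Arhgap28 (460, 480, 387 and 278 CPM) and Qrfpr/Tac1 (432, 298, 397 and 420 CPM) and the GABAergic Nox4/Kcnmb2 (303, 427, 208 and 464 CPM), Tfap2b/Col25a1 (333, 336, 314 and 327 CPM) and Tfap2b/Slc39a8 (297 ± 62.4 CPM). Their ranges overlapped. At the other end Adamts18/Col25a1 had 1 Oprm1 UMI in 47 nuclei. GABAergic and glutamatergic neurons had 114 ± 6.35 and 106 ± 9.15 CPM, a difference of 7.85 ± 13.6 CPM, with GABAergic neurons higher in 3 of 4 libraries (exact paired permutation test, two-sided, p = 0.375).

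Oprd1, the delta receptor, was high in clusters that express Slc17a7, the other main vesicular glutamate transporter. Slc17a7/Il1rapl2 had 57.6, 51.8, 76.0 and 62.8 CPM of Oprd1, and Slc17a7/Lama1 had 42.4 ± 14.96 CPM. Slc17a7 itself was at 153 and 136 CPM in these clusters and at 6.84 ± 1.84 CPM in all neurons. Bnc2/Ebf2 (54.2 ± 13.3 CPM, with no Slc17a7 UMI) and the GABAergic Zfp804b/Dlk1 (38.1 ± 17.05 CPM) were also among the 5 highest. Over all neurons Oprd1 was at 13.1 ± 1.63 CPM. Above the oligodendrocyte level were 53 of 120 clusters, among them 29 of 45 GABAergic and 22 of 61 glutamatergic clusters. That level was low (mean 0.26 CPM), and 53 were also above 2 times it, so the count tells more of detection than of level. GABAergic and glutamatergic neurons were at 14.8 ± 1.26 and 13.0 ± 1.87 CPM. GABAergic neurons were higher in 4 of 4 libraries (exact paired permutation test, two-sided, p = 0.125, the smallest possible).

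Oprk1, the kappa receptor, had 1 dominant cluster, Mecom/Oprk1, which carries the gene in its deposited name. It had 270, 344, 166 and 106 CPM (mean 222 ± 106) in 40 nuclei, of which 65.0% had a UMI, against 40.0 ± 17.1 CPM in the next, Ebf2/Calb1, a ratio of 5.54, without overlap. The libraries held 6, 18, 11 and 5 Mecom/Oprk1 nuclei, of which 4, 14, 6 and 2 had an Oprk1 UMI. A single nucleus of control replicate 1 gave 15 UMIs. Ebf3/Pax2 (37.7 ± 11.9 CPM), Cpa6/Cngb3 (33.1 ± 24.8 CPM) and Pdyn/Cpa6 (31.9 ± 15.2 CPM) were next. Among these, Pdyn/Cpa6 was the cluster highest in Pdyn, the precursor of the ligands of this receptor, and Ebf3/Pax2 was also among the 5 highest for Penk and Pnoc. All neurons had 12.3 ± 2.14 CPM of Oprk1, and 53 of 120 clusters were above the low oligodendrocyte level (mean 0.51 CPM).

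Oprl1, the nociceptin receptor, was nearly even across neurons. The cluster median was 10.9 CPM and the highest cluster, Tfap2b/Glra3, had 21.3, 24.5, 10.4 and 45.1 CPM, which overlapped Reln/Pou4f1 (23.6 ± 20.6 CPM), Kcnh8/Arhgap6 (22.6 ± 23.9 CPM) and Ebf2/Nmu (21.5 ± 15.2 CPM). These means rest on 8 to 19 UMIs each. Of the neurons with Oprl1, 92.8% had a single UMI, and 63 clusters were above the oligodendrocyte level. GABAergic and glutamatergic neurons were at 11.3 ± 0.66 and 11.03 ± 0.48 CPM.

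Outside neurons, Oprm1 was highest in CPM in immune nuclei. Ms4a4b.Immune nuclei, 61 in all, had 274, 429, 254 and 374 CPM (mean 333 ± 82.8, 36 UMIs), and Tmem119.Immune nuclei, 969 in all, had 194, 196, 264 and 193 CPM (mean 212 ± 35.1, 404 UMIs). In CPM both were above neurons (101.2 to 110.3) in 4 of 4 libraries (exact paired permutation test, two-sided, p = 0.125 each, the smallest possible). A UMI was found in 29.5% and 27.0% of these nuclei, but in 42.3% of neurons, which held 13306 Oprm1 UMIs in 12539 nuclei. The share and the UMIs per nucleus thus went the other way from CPM. Shares of immune nuclei at equal depth are not reported here. Tmem119.Immune nuclei expressed the microglial markers Tmem119, Csf1r and P2ry12 at 152, 906 and 862 CPM. The neuronal markers Snap25, Syt1 and Rbfox3 were at 142, 54.9 and 16.4 CPM there, and the part of neuronal RNA in the Oprm1 level was not tested. F13a1.Immune nuclei (31.3 ± 24.4 CPM) and ependymal nuclei (30.1 ± 16.95 CPM) followed, and the other types were between 1.99 and 12.5 CPM.

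Ipcef1, the antisense neighbour of Oprm1, moved with it. It was at 193 ± 33.2 CPM in Tmem119.Immune nuclei, 222 ± 114 CPM in Ms4a4b.Immune nuclei, 37.1 ± 3.28 CPM in neurons and 0.77 ± 0.34 CPM in oligodendrocytes. The number of Ipcef1 UMIs per Oprm1 UMI was 0.91, 0.69, 0.35 and 0.23 in these types, so the pair did not keep 1 ratio. Ipcef1 was found in 45.8% of Tmem119.Immune nuclei with Oprm1 and in 17.8% of those without, and in 40.7% and 8.37% of neurons. Whether Oprm1 counts in immune nuclei contain reads of Ipcef1 was not tested, and these levels are uncertain to that extent.

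**Figure D2:**
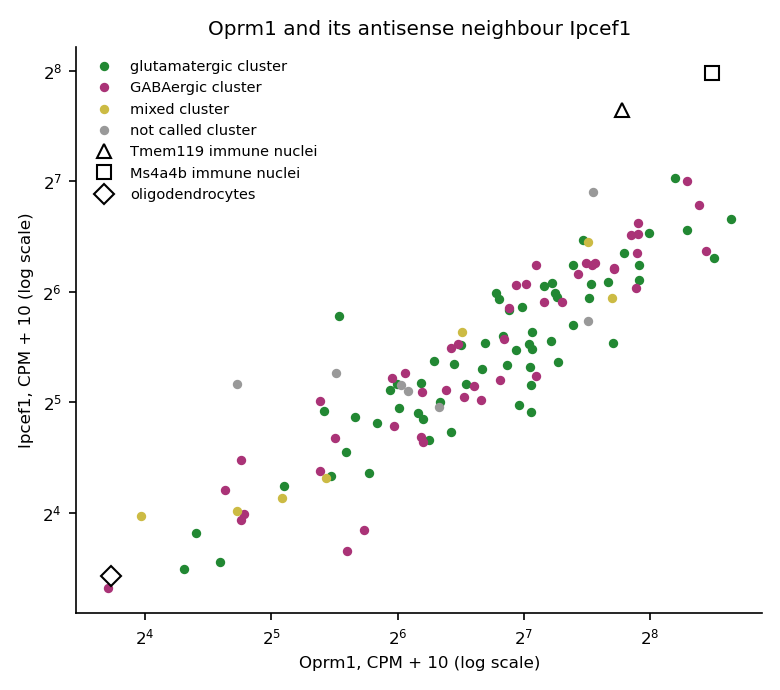
Pooled Oprm1 (horizontal) and Ipcef1 (vertical) levels, CPM + 10 on log axes, in 120 neuronal clusters (points, coloured by transmitter class) and in 3 other cell types (open symbols). The clusters lie along a rising band (r = 0.90 on the log2 scale), and both immune types lie above it.

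Penk outside neurons was less separated. Endothelial nuclei had 32.7, 48.8, 58.2 and 72.9 CPM and were above neurons in 3 of 4 libraries (difference 10.3 ± 11.8 CPM, exact paired permutation test, two-sided, p = 0.25). Ms4a4b.Immune nuclei had 90.2 ± 57.8 CPM from 8 UMIs, and mural and tanycyte-like nuclei had 34.1 ± 19.2 and 33.0 ± 8.65 CPM, none distinct from neurons beyond its spread. A830012C17Rik, the antisense neighbour of Penk, was at 14.2 ± 1.58 CPM in neurons, 0.73 CPM in endothelial nuclei and 0.16 CPM in oligodendrocytes, or 0.33, 0.01 and 0.01 UMIs per Penk UMI. Pdyn was highest in ependymal nuclei (8.84 CPM, 8 UMIs), Pnoc in F13a1.Immune nuclei (11.4 CPM, 2 UMIs) and Oprl1 in mural nuclei (12.9 CPM), while Oprd1 and Oprk1 were higher in neurons than in oligodendrocytes by 12.9 ± 1.75 and 11.8 ± 2.00 CPM.

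**Figure D3:**
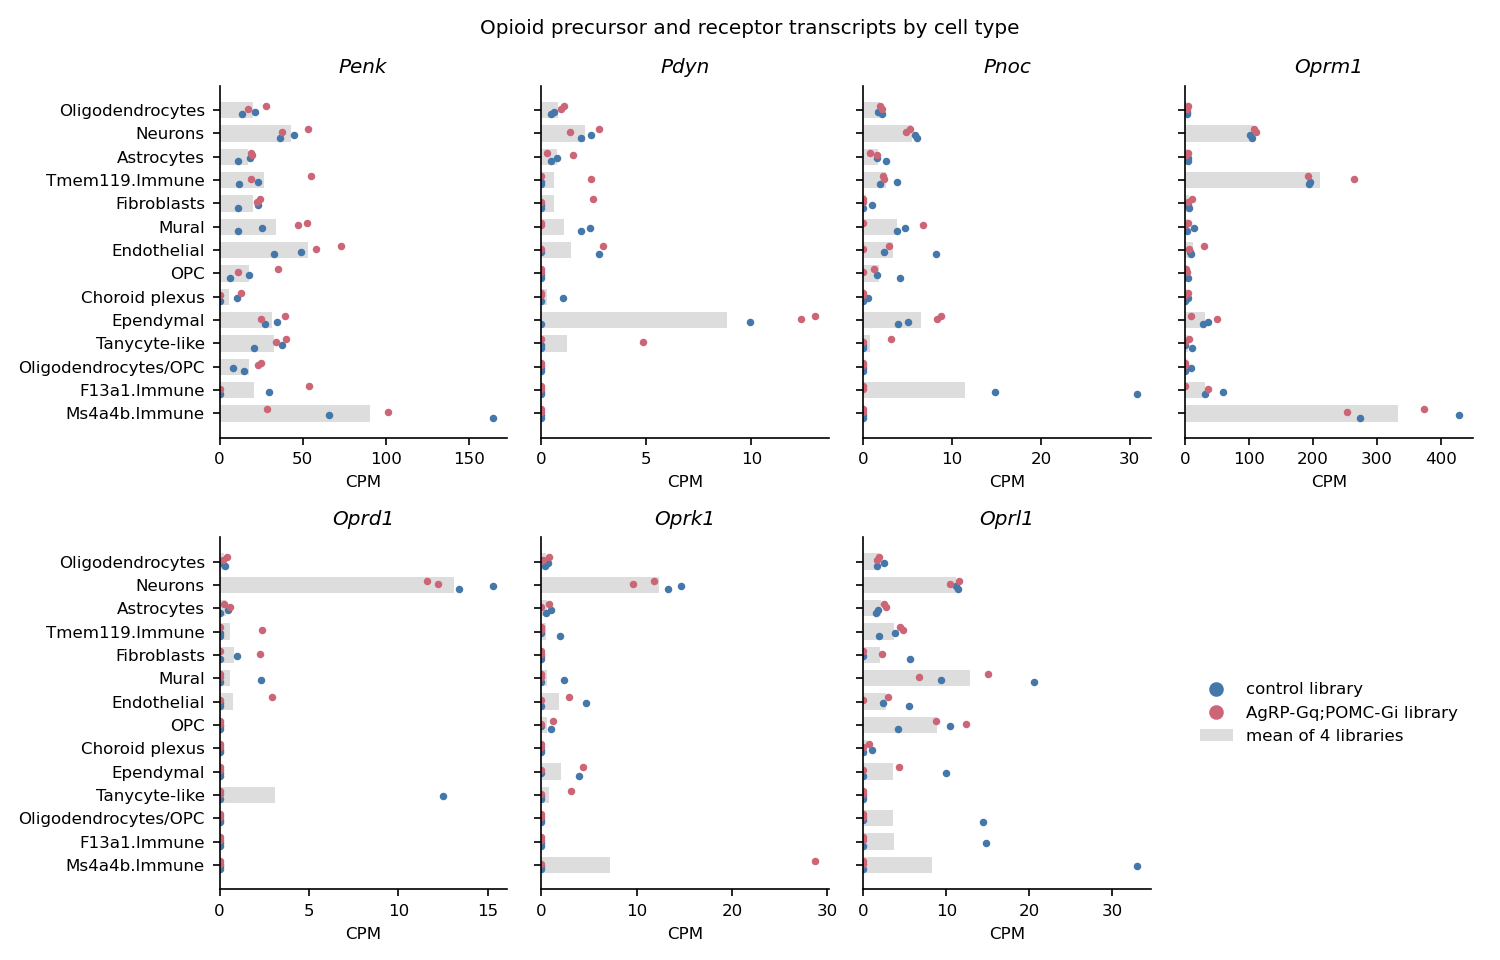
CPM (horizontal axes, each with its own scale from 0) of the 7 members in 14 cell types, ordered by number of nuclei; bars are means of 4 libraries and points are single libraries, coloured by group. Oprm1 is highest in Ms4a4b.Immune and Tmem119.Immune nuclei (333 and 212 CPM), whereas Oprd1 and Oprk1 lie almost wholly in neurons apart from single libraries of small types.

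Clusters that the study singled out differed in opioid genes. Ebf2/Th, a glutamatergic cluster with the tyrosine hydroxylase gene Th at 107 CPM, had 278, 240, 278 and 302 CPM of Oprm1, the sixth highest of 120 clusters, with 56.0 ± 21.5 CPM of Penk and 0 Pdyn UMIs. Gcg/Reln, which expresses the glucagon gene, had 232 ± 38.9 CPM of Oprm1 and 129 ± 34.5 CPM of Penk, with a Penk UMI in 58.4% of 89 nuclei and 0 UMIs of Pdyn and of Pnoc. Gfral/Sctr, which expresses the receptor for the growth factor GDF-15, had 55.1 ± 28.3 CPM of Oprm1. Its Penk, 18.8 ± 13.0 CPM, did not exceed that of oligodendrocytes (mean 20.0 CPM). The GABAergic Tal1/Nell1 had 109 ± 33.2 CPM of Oprm1, 20.3 ± 5.64 CPM of Oprk1 and 15.3 ± 8.92 CPM of Pnoc, and its Penk, 17.5 ± 7.92 CPM, did not exceed that of oligodendrocytes.

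Detection of a precursor and a receptor in the same nuclei was compared in percentage points. Receptors differed in how often they were detected, so these points do not rank the pairs. With neurons thinned to 2000 UMIs, Oprm1 was detected in 20.6% of neurons with Penk and 17.03% of those without, a difference of 3.56 percentage points (2.40 to 5.13 in single libraries, above 0 in 4 of 4). Compared within each cluster, the difference was 0.55 points (-0.84 to 1.53 in single libraries). With all UMIs it was 8.53 points, and 5.24 within clusters (2.72 to 7.13 in single libraries), values that also rise with the depth of a nucleus. For the other pairs of precursor and receptor, again thinned, the difference was -0.11 points for Oprd1 with Penk (-0.74 to 0.48 in single libraries, above 0 in 2 of 4) and 0.75 points for Oprl1 with Pnoc (-0.21 to 1.48, above 0 in 3 of 4). Within clusters these became -0.17 points (above 0 in 2 of 4) and 0.69 points (0.59 to 2.35, above 0 in 4 of 4). The values for Oprl1 with Pnoc rest on 4.56 expected nuclei with both genes, and on 0.70 to 1.53 in single libraries. Values within clusters used only clusters with at least 1 expected nucleus with and 1 without the precursor. For Pnoc these were 41 clusters, and 9 to 14 in single libraries. For Oprk1 with Pdyn the thinned difference was 0.92 points (-1.67 to 3.92, above 0 in 3 of 4), and -1.49 points within 13 clusters. These rest on 53 expected nuclei with Pdyn, of which 1.72 had both genes (0.11 to 0.73 in single libraries). With all UMIs, which also carry the depth of a nucleus, the differences were -0.65 points for Oprd1 with Penk, 3.93 for Oprl1 with Pnoc and 2.88 for Oprk1 with Pdyn. Within clusters they were 0.015, 6.27 and -0.64 points. Over the 120 clusters Penk and Oprm1 correlated at r = 0.36, the highest of the 21 pairs of members, with the lowest at -0.06. Clusters share libraries and free RNA, so these coefficients are descriptions without a test.

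The genes whose cluster pattern was most like a member's were found by the correlation of log2(CPM + 10) over the 120 clusters among 12807 genes. For Penk and Oprm1 they were the antisense neighbours, A830012C17Rik (r = 0.86) and Ipcef1 (r = 0.90). For Oprm1 the next were Rgs17 (0.58) and Gas7 (0.54), and for Penk Nsg2 (0.48) and Thap3 (0.42). Pnoc was most like Gad2 (0.59), which makes GABA, Erich2 (0.55) and Slc32a1 (0.54). Pdyn was most like Myzap (0.62), Abi3bp (0.52) and Adam18 (0.50), Oprd1 like Il17re (0.49), Pde6c (0.49) and Deptor (0.48), and Oprk1 like Barx2 (0.53), Nexmif (0.46) and Vwc2 (0.45). No gene came close to Oprl1, for which Nvl led at 0.39, followed by Acvr1b and Elovl4 at 0.36.

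Genes that work around the peptides were measured over all neurons, with no comparison of neurons with and without a member. Among genes for precursor processing, Pcsk2, the convertase that cuts opioid precursors, was at 445 ± 32.1 CPM, Pam, which amidates peptides, at 278 ± 15.5 CPM, Scg5, the chaperone of Pcsk2, at 213 ± 13.2 CPM and Cpe, which trims basic residues, at 197 ± 9.41 CPM. Of peptidases that break peptides down, Ece2 was at 99.6 ± 3.89 CPM, Ece1 at 24.7 ± 1.79 CPM and neprilysin (Mme) at 22.0 ± 2.22 CPM. Of the G protein and RGS genes, Rgs7 was at 676 ± 29.3 CPM, while Gnao1 and Gnai1, at 197 ± 12.7 and 69.7 ± 8.09 CPM, were higher in oligodendrocytes (1047 and 247 CPM). Among genes of receptor desensitization, Arrb1 was at 68.6 ± 3.496 CPM and Grk5 at 63.0 ± 3.63 CPM in neurons, and Arrb2 was at 292 CPM in Tmem119.Immune nuclei. Effectors included the calcium channels Cacna1a (748 ± 34.3 CPM) and Cacna1b (261 ± 8.84 CPM), the potassium channel Kcnj3 (417 ± 19.9 CPM) and the adenylyl cyclase Adcy8 (285 ± 19.0 CPM). Pomc, the precursor of the opioid beta-endorphin, was at 3.11 ± 0.88 CPM in neurons and 2.14 CPM in oligodendrocytes.

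No member passed the test between AgRP-Gq;POMC-Gi and control neurons. By edgeR's quasi-likelihood test on UMIs summed per library, with p-values adjusted over 12115 genes by the Benjamini-Hochberg method, 0 genes were called (0.0%), with 667 at an unadjusted p under 0.05 and 10 called by DESeq2. The log2 fold change, AgRP-Gq;POMC-Gi over control, was -0.33 ± 0.12 (SE) for Oprk1 (unadjusted p = 0.034, the single member under 0.05), -0.21 ± 0.13 for Oprd1, 0.15 ± 0.07 for Oprm1, 0.22 ± 0.15 for Penk and 0.02 ± 0.11 for Oprl1, with edgeR adjusted p between 0.81 and 0.97. Pdyn and Pnoc had a UMI in fewer than 5% of neurons and were not in this test. Tested without that filter, they gave 0.00 and -0.18 (edgeR adjusted p = 1.00 and 0.87).

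The values per library show how the groups lay. Oprk1 was at 13.3 and 14.6 CPM in controls and 9.64 and 11.8 CPM in AgRP-Gq;POMC-Gi, Oprd1 at 13.4 and 15.3 against 12.2 and 11.6 CPM, and Pnoc at 6.03 and 5.83 against 4.75 and 5.27 CPM. These 3 and Oprm1 did not overlap between groups, 4 of 7 members. Of the 12115 genes in the edgeR test, which leave out Pnoc and Pdyn, 38.1% did not overlap. Pdyn (1.86 and 2.37 against 1.35 and 2.72 CPM) and Oprl1 (11.4 and 11.1 against 10.5 and 11.5 CPM) overlapped, as did Penk. Without AgRP-Gq;POMC-Gi replicate 2, the library low in Xist, Oprm1 was at a log2 fold change of 0.22 and Oprk1 at -0.42. Without AgRP-Gq;POMC-Gi replicate 1 they were at 0.07 and -0.24, and with each cluster given equal weight at 0.03 and -0.37. Penk went from 0.22 to 0.014 without AgRP-Gq;POMC-Gi replicate 2. Oprd1 moved from -0.21 to -0.12 without that library and to -0.11 without control replicate 2. The Penk value also depended on the other libraries: leaving out control replicate 1 gave 0.08, control replicate 2 gave 0.38 and AgRP-Gq;POMC-Gi replicate 1 gave 0.40, and it was -0.0086 when each cluster was given equal weight.

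**Figure D4:**
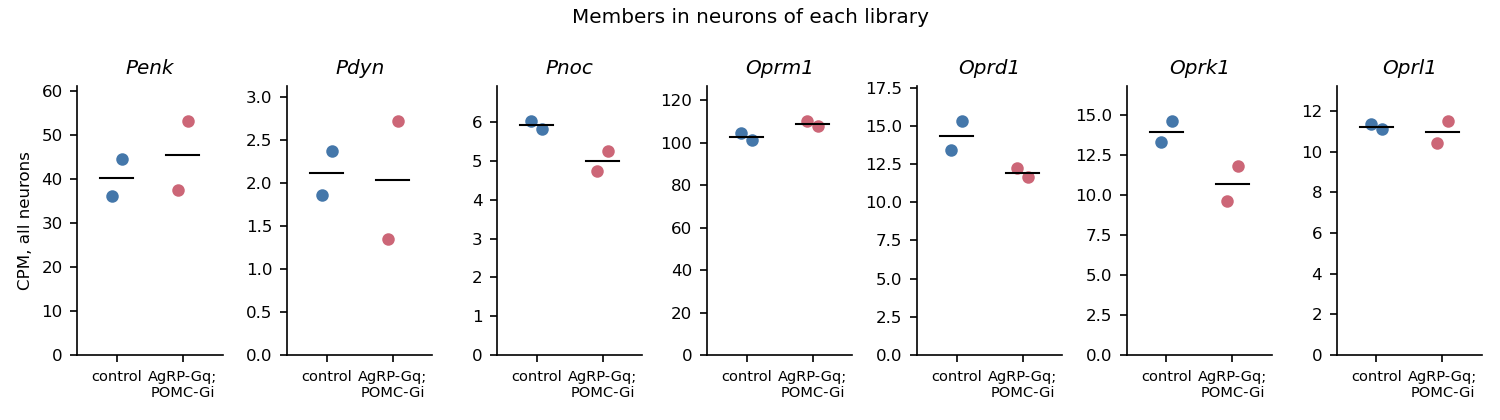
CPM of each member in all neurons (vertical axes from 0, each with its own scale) by group, control and AgRP-Gq;POMC-Gi; points are the 2 libraries of each and lines are group means. Groups do not overlap for Pnoc, Oprm1, Oprd1 and Oprk1, and no member passed the edgeR test.

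In cell types other than neurons, 11 pairs of member and type had enough nuclei with a UMI to be tested, Penk in 8 types and Oprm1 in 3, and 0 were called, against 91 of 88959 pairs of gene and type (0.102%). By edgeR, Penk in oligodendrocyte precursors had a log2 fold change of 1.10 ± 0.52 (adjusted p = 0.78, the single pair with an unadjusted p under 0.05), and Oprm1 in Tmem119.Immune nuclei one of 0.24 ± 0.20 (adjusted p = 0.92). The group difference was also compared between GABAergic and glutamatergic neurons by an interaction term in edgeR. That difference of log2 fold changes lay between -0.23 and 0.35 for the 6 members tested (adjusted p of at least 0.99), and 0 of 12354 genes were called (0.0%), with 601 at an unadjusted p under 0.05.

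Cluster by cluster, 535 pairs of member and neuronal cluster were tested and 1 was called, where 537 of 1396489 pairs of gene and cluster were called (0.0385%, and 0.0195% as higher in AgRP-Gq;POMC-Gi). The pair was Penk in Zfp804b/Lncenc1, a glutamatergic cluster of 75 nuclei, with 47.4 and 5.72 CPM in controls and 108 and 195 CPM in AgRP-Gq;POMC-Gi, a log2 fold change of 2.36 ± 0.43 (edgeR adjusted p = 0.00014). The groups did not overlap, and the values rest on 11, 1, 31 and 33 UMIs in 3 of 20, 1 of 16, 8 of 26 and 6 of 13 nuclei. The adjusted p covers the genes tested in this cluster only, with no correction over clusters. A single nucleus gave 17 of the 33 UMIs of AgRP-Gq;POMC-Gi replicate 2. The call was lost by edgeR without control replicate 2 (1.72, adjusted p = 0.99), when AgRP-Gq;POMC-Gi replicate 2 was left out (2.03, adjusted p = 0.053) and with the stricter gene filter filterByExpr (2.35, adjusted p = 0.25), and DESeq2 called 0 pairs of member and cluster.

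At an unadjusted p under 0.05 stood 41 of the 535 pairs (7.66%), against 4.52% of all pairs: 16 of 110 for Penk, 12 of 118 for Oprm1, 6 of 84 for Oprk1, 3 of 34 for Pnoc, 2 of 77 for Oprd1, 2 of 105 for Oprl1 and 0 of 7 for Pdyn. Directions were mixed. Penk was higher in AgRP-Gq;POMC-Gi in 55 of 110 clusters and Oprm1 in 63 of 118, whereas Oprd1 was higher in 29 of 77 and Pnoc in 11 of 34, and over all genes 51.2% of pairs were higher. Oprk1, Oprl1 and Pdyn were higher in 39 of 84, 59 of 105 and 4 of 7. The median log2 fold change was -0.03 over the members' pairs and 0.02 over all pairs.

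**Figure D5:**
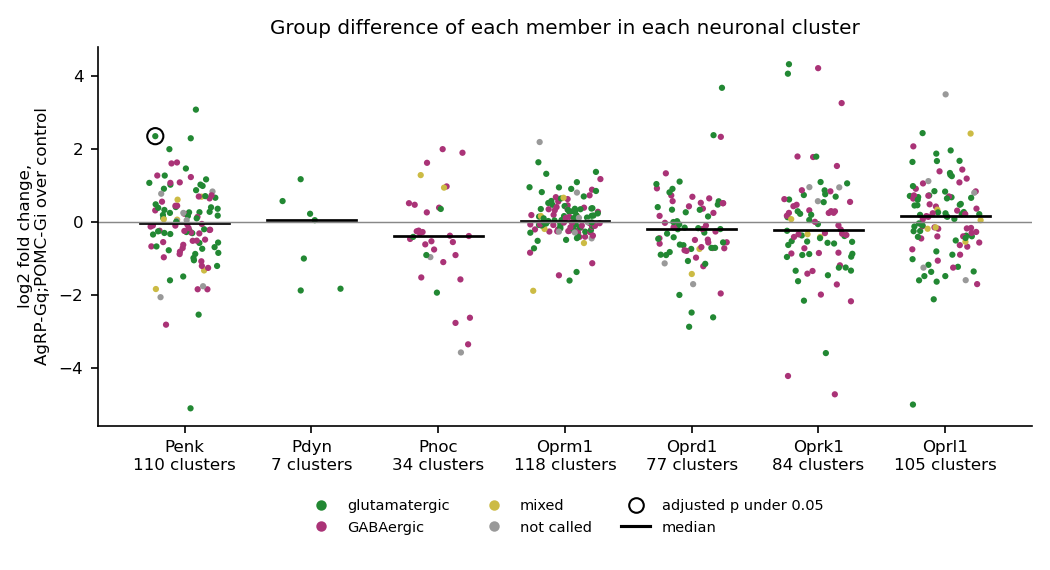
Log2 fold change of AgRP-Gq;POMC-Gi over control (vertical axis) for each member in each neuronal cluster tested, 1 point per cluster, coloured by transmitter class; lines are medians and the circle marks an edgeR adjusted p under 0.05. Points spread on both sides of 0 for each of the 7 members, and the single circled point is Penk in Zfp804b/Lncenc1 at 2.36.

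Of the genes around the peptides, edgeR called none in neurons: 0 of 7 processing genes, 0 of 4 breakdown genes, 0 of 8 G protein and RGS genes (1 at an unadjusted p under 0.05), 0 of 6 desensitization genes and 0 of 8 effector genes tested. Median log2 fold changes of the lists were between -0.07 and 0.07, and 6047 of the 12115 genes tested had a positive value. Of the effectors, 2 of 32 pairs of gene and cell type other than neurons were called (0.102% of all pairs) and 1 of 957 pairs of gene and neuronal cluster (0.0385% of all pairs). By edgeR, Kcnj3 was higher in AgRP-Gq;POMC-Gi astrocytes (71.9 and 83.2 against 107 and 140 CPM, log2 fold change 0.71 ± 0.13, adjusted p = 0.031) and in the cluster Ankfn1/Pou4f1 (121 and 178 against 427 and 348 CPM, 1.47 ± 0.35, adjusted p = 0.017). Cacna1a was higher in mural nuclei (28.0 and 39.7 against 128 and 97.2 CPM, 1.74 ± 0.36, edgeR adjusted p = 0.0041). Each of these p-values was adjusted within its own cell type or cluster only. Both genes were highest in neurons (417 and 748 CPM), and the AgRP-Gq;POMC-Gi libraries held more neurons (3696 and 3637 against 2470 and 2736); the part of neuronal RNA in the calls outside neurons was not tested.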

How the data were processed

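All 4 libraries of nuclei from the posterior hindbrain were analysed. The deposited values are raw counts of UMIs per gene and barcode, which the authors made with the 10x Genomics 3′ kit and Cell Ranger 7.0.0 on GRCm38 (mm10). Per the methods, they then worked in Seurat 4.3.0, removed barcodes under 800 UMIs, under 500 genes or over 10% mitochondrial RNA, and marked doublets. Whether introns and strand were used in counting is not given in the sources used here. Their annotation gave cell types, clusters and the nuclei used; no doublet caller was run here. A joined table repeats the counts of the single libraries and was set aside.

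UMIs were summed per library and cell type or cluster (at least 5 nuclei in every library), divided by total UMIs to give CPM, and tested with edgeR 4.0.16 (glmQLFTest, TMM factors, R 4.3.3) over genes detected in 5% or more of the nuclei tested. DESeq2 1.42.0 served as an alternative. Shares were also computed after expected thinning to 2000 UMIs. A threshold of 0.05 was used on adjusted p. Adjustment was over the genes tested within each cell type or cluster, and not over cell types or clusters. Clusters with under 20 UMIs of both Slc17a6 and Slc32a1 were not given a class. Named were the 7 members in every cell type and library, the 5 highest clusters of each, 5 clusters of the study, called pairs, the 3 most similar genes, and from each list of related genes the 2 to 4 highest in neurons; a few clusters that this rule names are not reported here. The members were chosen by name, and they and the lists were chosen with earlier results of these data known. The scripts were tested on simulated data. The labels name no animal, batch or day that same-numbered libraries share, so the replicate number was a block only in an alternative.

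Intervals and shares cover counting error only. Other normalizations, filters, classes, a replicate block and leaving out each library were tried.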

Additional observations from a re-analysis of the deposited data

How the results depend on the processing

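Counts of calls moved with the processing. In all neurons 0 genes were called with 4 libraries, 10 by DESeq2, 1 without the gene filter, 1 with filterByExpr, 169 with the replicate number as a block, and 4 to 2044 without single libraries, the highest without AgRP-Gq;POMC-Gi replicate 2. Of the members, 0 were called, or 0 to 1 without single libraries (Oprm1 without AgRP-Gq;POMC-Gi replicate 2). In other cell types, 91 pairs became 186 without TMM factors, 755 with the replicate block and 197 to 801 without single libraries. In clusters, 537 pairs became 299 with at least 10 nuclei per library, 48 by DESeq2, 1102 without the filter, 110 with filterByExpr and 729 to 1325 without single libraries. The 1 called pair of member and cluster became 0 by DESeq2 and with filterByExpr, 3 without the filter, 2 with the replicate block, and 2 to 4 without single libraries. The interaction calls went from 0 to between 0 and 126 without single libraries. A group left with 1 library was assumed to vary like the other. The replicate block was an alternative because the labels do not say what same-numbered libraries share. Their deviations correlated at 0.18 over 12115 genes (2 pairs), and Ttr and Tph2 in neurons split by number in both groups. The block changed no member's call in neurons. The causes were not tested.

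Clusters above the oligodendrocyte level were 17 in place of 29 for Penk when compared with 2 times that level, and for Pdyn 5 to 8 without single libraries, the highest without control replicate 2. The difference in Oprm1 detection between neurons with and without Penk was 3.56 points in thinned nuclei (0.55 within clusters) and 8.53 points with all UMIs (5.24 within clusters). For Oprl1 with and without Pnoc it was 0.75 points in thinned nuclei (0.69 within clusters) and 3.93 points with all UMIs (6.27 within clusters). Of 156 alternatives for single fold changes, 137 left direction and call as they were and 13 turned the direction, none of them of a called value: Penk in neurons with clusters weighted equally (-0.0086), Oprl1 without TMM factors (-0.034), the class difference of Oprl1 with a 10-fold class threshold (-0.11), and, without single libraries, the class differences of Penk (-0.31 to 0.010) and Pnoc (-0.80 to 0.29), Penk in ependymal nuclei (-0.23 to 0.36), and Oprm1 in ependymal (-0.16 to 0.75), Ms4a4b.Immune (-0.63 to 0.22) and Tmem119.Immune nuclei (-0.056 to 0.50). Pdyn and Pnoc had enough UMIs to be tested in 7 and 34 clusters, and their differences in the other clusters were not tested.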

Other observations

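Of the 134 neuronal clusters, 14 had fewer than 5 nuclei in some library and were not ranked. The highest values among them, with the UMIs of all libraries pooled, were for Penk: Npy/Ankfn1 had 251 CPM, with a UMI in 60.0% of 35 nuclei (95% exact binomial interval 42.1 to 76.1%), and Myo5b/Otof had 187 CPM, with a UMI in 73.8% of 42 nuclei (58.0 to 86.1%). Npy/Ankfn1, named for the gene of neuropeptide Y, also had 57.1 CPM of Pnoc from 15 UMIs and 110 CPM of Oprm1 from 29 UMIs.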
